A study of Homo sapiens with 2 samples.

Results

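Genes of the Wnt pathway were examined in ACHN, an established cell line from a human kidney tumour (clear cell, per the labels), after shRNA against Kindlin-2. A gene was included when its symbol on the array began with WNT, FZD, DKK or SFRP and a digit, or when it was among 18 further pathway genes listed by name. This gave 53 genes with a measured transcript cluster, a set of probes read as 1 feature, of 18417 genes with a single symbol: 37 from the 4 families and 16 of the 18 listed by name. PORCN and TCF7 were not analysed here. The groups were ACHN cells transfected with Kindlin-2 shRNA and ACHN cells transfected with a control shRNA, both grown in medium with 10% serum and 400 µg/ml G418, a drug that selects transfected cells. Whether either culture was a single clone and which sequences the shRNAs had were not given in the labels. Each group was measured on 1 Affymetrix Human Gene 1.0 ST array (n = 1), so no value below has a replicate error, no test was possible, and every difference describes this pair of arrays.

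Wnt ligands are secreted, lipid-modified proteins that bind a Frizzled receptor together with the co-receptors LRP5 or LRP6. Binding stops a complex of Axin, APC and the kinase GSK3B from marking beta-catenin for destruction, and beta-catenin then acts with TCF and LEF proteins on target genes, some of which (AXIN2, NKD1, RNF43, ZNRF3) feed back to damp the signal. Other branches run through Frizzled, ROR and planar polarity proteins without beta-catenin, and the pathway is known for its part in nephron formation. Kindlin-2 is the product of FERMT2, an integrin adaptor protein that has also been described as a partner of beta-catenin.

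All values are log2 values from RMA, the authors' normalisation. A gene was taken as above the floor when its 2 values averaged at least 6.52, the median over the whole table. The floor is a mark of brightness and not a detection call. Levels of different genes were not set against each other, since each gene has its own probes. The summed marker levels below are an exception, in which genes with bright probes weigh most. Each sum can be read between the 2 arrays but not between lists, which also differ in size. FERMT2 had 8.26 in the Kindlin-2 shRNA cells, against 9.37 in the control shRNA cells, a difference of -1.11 on the log2 scale (46.4% of the control level). Medians over all transcript clusters were 6.53 and 6.51 on the Kindlin-2 shRNA and control shRNA arrays. The labelled cell type was checked against marker genes. All 8 kidney epithelial markers measured (such as PAX8 and KRT8) were above the floor, with a summed level of 14.10 in the Kindlin-2 shRNA cells and 14.44 in the control shRNA cells (log2 of the summed linear values), but 4 of 7 proximal tubule markers, LRP2 and CUBN among them, were below it. The keratins KRT8, KRT18 and KRT19 made up most of the kidney epithelial sum. PAX2 and CDH16 of the kidney epithelial list were 1.58-fold and 1.78-fold lower in the Kindlin-2 shRNA cells. Of the clear cell carcinoma markers, CAV1, VEGFA and ANGPTL4 were above the floor and EGLN3 below it, with a summed level of 12.23 in the Kindlin-2 shRNA cells and 12.56 in the control shRNA cells. CAV1 alone, with 12.05 and 12.44 in the same order, made up most of that sum. Of these 4 markers, 2 lay above and 2 below their control value. ANGPTL4 was 1.77-fold higher in the Kindlin-2 shRNA cells, and CA9 and NDUFA4L2 were not analysed here. No endothelial (of 5) and no leukocyte marker (of 5) was above the floor. Of 6 fibroblast markers COL1A1 and PDGFRB were, with 7.45 and 6.31 in the Kindlin-2 shRNA cells and 7.28 and 7.08 in the control shRNA cells. The summed levels were 8.56 and 8.70 for the fibroblast, 7.45 and 7.59 for the endothelial and 7.71 and 7.62 for the leukocyte markers, the Kindlin-2 shRNA cells first. The part of these markers in the Wnt differences was not tested. In bulk RNA, fewer cells of a type and less RNA per cell cannot be told apart.

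Of the 53 genes, 33 (62.3%) lay within 1.2-fold, a threshold chosen after the values were seen, beside 68.4% of all genes. At least 1.5-fold apart stood 6 of the 53. The ligand WNT2B, the receptor FZD3, the secreted antagonist SFRP4, the co-receptor LRP5 and the feedback gene AXIN2 were lower in the Kindlin-2 shRNA cells, and the secreted antagonist SFRP1 was higher. Thus 5 of 53 genes were at least 1.5-fold lower, beside 3.81% of all 18417 genes, and 1 was at least 1.5-fold higher, beside 3.77%. At 2-fold the counts were 3 lower (0.896% of all genes) and 1 higher (1.01%). Of the 36 Wnt genes above the floor, 3 were at least 1.5-fold lower (4.93% of the 11470 genes above it) and 1 higher (4.86%), and at 2-fold 1 was lower (1.09%) and 1 higher (1.29%). The median difference of these 36 genes was -0.07, against -0.02 over all genes above the floor.

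**Figure D1:**
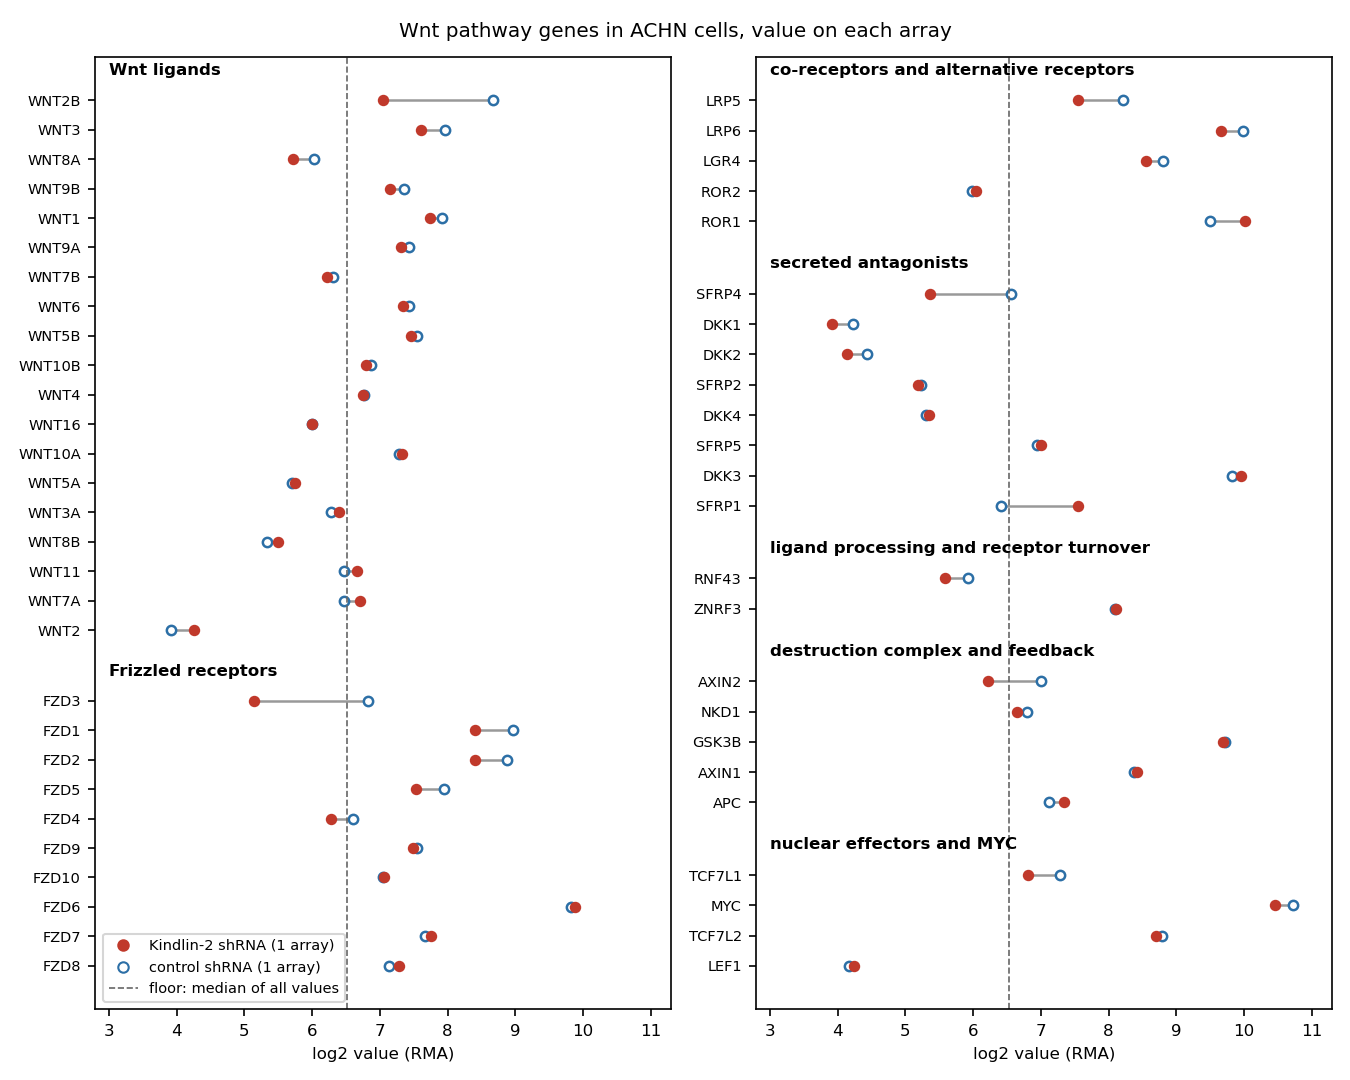
Log2 values (horizontal axis) of the 53 Wnt pathway genes by role, 1 row a gene, filled red points for the Kindlin-2 shRNA array and open blue points for the control shRNA array, with a dashed line at 6.52, the median of all values. The points of WNT2B, FZD3, SFRP4, LRP5, AXIN2 and SFRP1 lie furthest apart, and those of the other genes lie closer together.

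The promoter windows of the genes with the larger differences are shown, as far as the RefSeq table used here holds them (GRCh38.p14). They run from 250 bases before to 50 bases after the annotated start, 5′ to 3′ in the direction of the gene, and are shown to let the sequence around the start be read beside the values. Capitals mark letters of the motif bound by TCF and LEF proteins, searched on both strands. The first variant searched was CTTTGAA, the next was CTTTGAT, a further variant was CTTTGTA, and the last was CTTTGTT. WNT2B, LRP5 and SFRP4 were at least 1.5-fold lower. No window could be matched to AXIN2, FZD3 and SFRP1, the other genes at least 1.5-fold apart. For each Wnt gene 1 window was used, the first in order of coordinate on either strand, so any other start was not searched. DKK1, an antagonist and known beta-catenin target, is added because its window alone among the Wnt genes held more than 1 match.
WNT2B (chr1:112466291-112466590, + strand): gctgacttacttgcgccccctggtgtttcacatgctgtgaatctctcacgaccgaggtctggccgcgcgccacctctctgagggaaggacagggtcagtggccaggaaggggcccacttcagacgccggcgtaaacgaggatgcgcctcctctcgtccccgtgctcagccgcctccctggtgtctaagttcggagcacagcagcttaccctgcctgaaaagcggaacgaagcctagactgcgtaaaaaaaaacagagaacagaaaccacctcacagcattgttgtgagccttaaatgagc
LRP5 (chr11:68312341-68312640, + strand): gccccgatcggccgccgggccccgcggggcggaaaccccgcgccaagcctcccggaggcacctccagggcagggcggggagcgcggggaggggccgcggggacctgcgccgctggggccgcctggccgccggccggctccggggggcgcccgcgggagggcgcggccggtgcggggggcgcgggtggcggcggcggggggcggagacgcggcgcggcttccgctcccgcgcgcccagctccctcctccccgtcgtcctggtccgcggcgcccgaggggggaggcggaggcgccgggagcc
SFRP4 (chr7:37916768-37917067, - strand): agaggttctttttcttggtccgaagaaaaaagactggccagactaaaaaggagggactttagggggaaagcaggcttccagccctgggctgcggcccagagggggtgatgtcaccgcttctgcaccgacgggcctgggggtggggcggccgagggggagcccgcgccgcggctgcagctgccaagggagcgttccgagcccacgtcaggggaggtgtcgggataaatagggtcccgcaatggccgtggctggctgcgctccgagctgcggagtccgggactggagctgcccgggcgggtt
DKK1 (chr10:52314031-52314330, + strand): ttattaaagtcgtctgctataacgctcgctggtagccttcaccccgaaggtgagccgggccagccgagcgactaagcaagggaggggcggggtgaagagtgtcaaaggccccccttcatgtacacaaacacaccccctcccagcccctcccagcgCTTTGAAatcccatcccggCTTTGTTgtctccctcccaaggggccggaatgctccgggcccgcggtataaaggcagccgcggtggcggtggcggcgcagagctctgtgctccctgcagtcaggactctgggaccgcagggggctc

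No capitals occur in the windows of WNT2B, LRP5 and SFRP4, so none of the motif's letters lie in these 300 bases on either strand. The DKK1 window held CTTTGAA beginning 95 bases and CTTTGTT beginning 76 bases before the start, and the WNT3 window held CTTTGTT beginning 20 bases after it. These were the only matches in the 36 windows that could be matched to a Wnt gene (2 of 36, 5.56%), beside 13.8% of all 35116 windows of the table. The windows of the Wnt genes were richer in G and C, with a median of 69.2% against 58.7% over the table, and the LRP5 window reached 86.7%. Motif letters in such a window describe the sequence and no binding.

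Among the ligands, WNT2B had the largest difference. WNT2B, a ligand of the beta-catenin branch, had a log2 value of 7.05 in the Kindlin-2 shRNA cells, against 8.68 in the control shRNA cells. Both values were above 6.52. The difference was -1.63, a 3.10-fold lower level, and 27 of the 11470 genes above the floor lay further below their control value. Among the 1842 genes of like brightness (the same of 10 bins by mean value), 4 did. Of the 19 Wnt ligand genes measured, WNT2B was the only one at least 1.5-fold apart, beside 3.81% of all genes lower and 3.77% higher. Within 1.2-fold lay 15 of the 19, beside 68.4% of all genes.

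WNT3, which signals through beta-catenin, followed with 7.61 in the Kindlin-2 shRNA cells and 7.96 in the control shRNA cells (difference -0.35). WNT9B, which induces nephron formation in the mouse, had 7.15 and 7.35 (-0.21), and WNT1, the founding member of the family, 7.75 and 7.92 (-0.18), again with the Kindlin-2 shRNA value first. All 3 shifts were under the SD of the difference among genes of like brightness, which was 0.41 for WNT3 and WNT1 and 0.37 for WNT9B. WNT4, WNT5B, WNT6, WNT9A and WNT10B differed by between -0.11 and -0.01 and WNT10A by 0.04, all above the floor. WNT7A and WNT11, with 6.71 and 6.66 in the Kindlin-2 shRNA cells and 6.47 each in the control shRNA cells, differed by 0.24 and 0.19. Their control values lay below 6.52.

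The other 7 ligands were below the floor. WNT5A, the main ligand of the ROR receptors, had 5.75 in the Kindlin-2 shRNA cells and 5.70 in the control shRNA cells. WNT2 differed by 0.34 (4.26 against 3.92) and WNT8A by -0.31 (5.71 against 6.02). WNT3A, WNT7B and WNT8B differed by 0.13, -0.09 and 0.15, and WNT16 had the same value, 5.99, on both arrays, as did 1.43% of all transcript clusters in the table. In RefSeq's gene order 4 pairs of Wnt genes lie beside each other or with 1 coding gene between them. WNT3 and WNT9B (-0.35 and -0.21) and WNT1 and WNT10B (-0.18 and -0.07) had differences of the same sign. WNT9A and WNT3A (-0.11 and 0.13) and WNT6 and WNT10A (-0.09 and 0.04) did not. Each of these differences was under the SD among genes of like brightness. With the median of the nearest genes on the chromosome subtracted, WNT1 and WNT10B became positive (0.04 and 0.17). WNT6 and WNT10A then shared a sign (-0.16 and -0.06). WNT3 and WNT9B still did (-0.29 and -0.13), and WNT9A and WNT3A still did not (-0.21 and 0.04).

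Among the Frizzled receptors, which bind Wnt ligands through an extracellular cysteine-rich domain, 6 of 10 lay below and 4 above their control value. Over all genes 52.0% lay below. FZD3, known from axon guidance and planar polarity in the mouse, had 5.15 in the Kindlin-2 shRNA cells, against 6.82 in the control shRNA cells. The control value alone reached 6.52, so FZD3 (difference -1.67, 3.18-fold lower) passed no floor set on the mean. Of 1841 genes of like brightness, 6 lay further below. FZD1 had 8.40 in the Kindlin-2 shRNA cells and 8.97 in the control shRNA cells, a difference of -0.57 that ended just short of 1.5-fold (1.48-fold lower).

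FZD2 (8.41 in the Kindlin-2 shRNA cells, 8.88 in the control shRNA cells) and FZD5 (7.53 and 7.95) differed by -0.47 and -0.42. FZD4, a receptor for Norrin as well as for Wnt ligands, was just below the floor, with 6.28 and 6.61 in the same order (-0.33). The other Frizzled genes were nearly level. FZD6 (0.06), FZD7 (0.09), FZD8 (0.14), FZD9 (-0.06) and FZD10 (0.01) all lay within 1.2-fold and above the floor.

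The co-receptors LRP5 and LRP6, which Wnt ligands bridge to a Frizzled, were both lower. LRP5 had 7.56 in the Kindlin-2 shRNA cells and 8.22 in the control shRNA cells, a difference of -0.66 (1.58-fold lower). Among 1842 genes of like brightness, 84 lay further below, so LRP5 was less far out than WNT2B or FZD3. LRP6 had 9.65 in the Kindlin-2 shRNA cells, against 9.98 in the control shRNA cells (-0.33). LGR4, a receptor for R-spondins that shields Frizzleds from removal, had 8.55 and 8.80 in the same order (-0.25).

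ROR1, a receptor-like kinase for WNT5A outside the beta-catenin branch, went the other way. Its log2 value was 10.01 in the Kindlin-2 shRNA cells, against 9.50 in the control shRNA cells, a difference of 0.51 (1.43-fold higher). Apart from SFRP1 this was the largest positive difference among the 53 genes as deposited, but with the autosome median subtracted the dim WNT2 (0.55) passed ROR1 (0.49). ROR2, its relative, was below the floor with 6.05 and 5.98 in the same order (0.07).

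The secreted antagonists held the only Wnt gene that was at least 1.5-fold higher and 1 of the 5 that were at least 1.5-fold lower. SFRP proteins carry a Frizzled-like domain and bind Wnt ligands. SFRP1 had 7.54 in the Kindlin-2 shRNA cells, against 6.42 in the control shRNA cells, where it was below 6.52. The difference of 1.12 was 2.18-fold, and 12 of 1842 genes of like brightness lay further above. SFRP4 had 5.37 in the Kindlin-2 shRNA cells and 6.56 in the control shRNA cells, a difference of -1.20 (2.29-fold lower), with only the control value above 6.52. The related SFRP5 (7.0 and 6.94) and SFRP2 (5.19 and 5.23) were nearly level between the groups, in the same order.

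DKK1, DKK2 and DKK4, which bind LRP5 and LRP6, were all below the floor. DKK1 had 3.91 in the Kindlin-2 shRNA cells and 4.23 in the control shRNA cells (-0.31), DKK2 4.14 and 4.43 (-0.29) and DKK4 5.35 and 5.30 (0.05). DKK3, a diverged family member, was above it with 9.95 in the Kindlin-2 shRNA cells and 9.82 in the control shRNA cells (0.13). A second, dimmer DKK3 transcript cluster had 5.13 on both arrays. Of the 8 antagonists 4 lay above and 4 below their control value, beside 52.0% of all genes below.

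**Figure D2:**
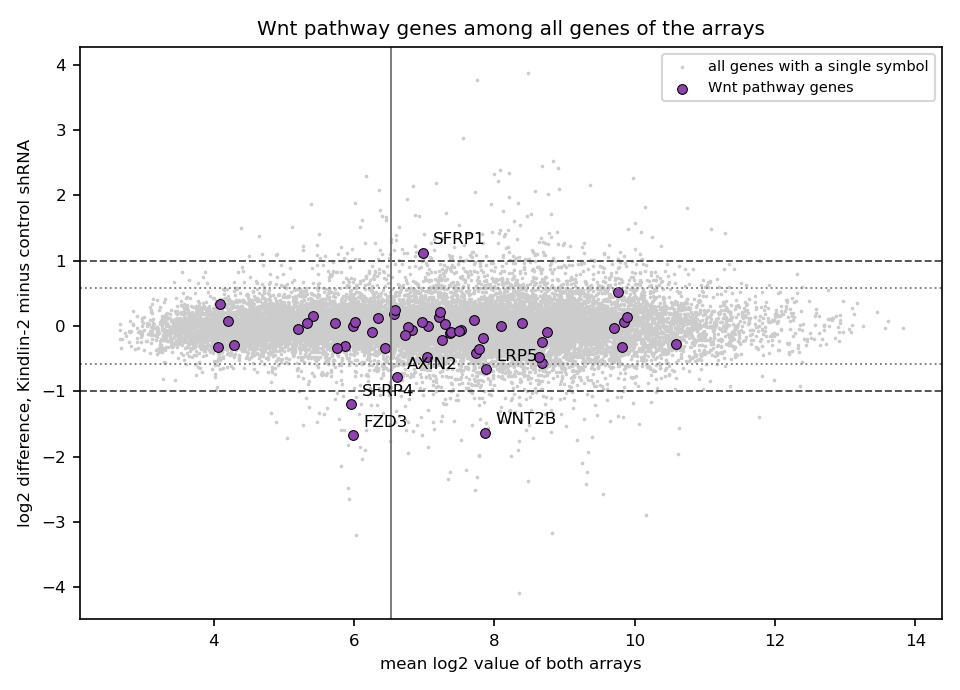
Log2 difference, Kindlin-2 shRNA minus control shRNA (vertical axis), against the mean log2 value of both arrays (horizontal axis) for all 18417 genes (grey) and the 53 Wnt pathway genes (purple). Dotted and dashed horizontal lines mark 1.5-fold and 2-fold and the vertical line marks 6.52. WNT2B and LRP5 lie right of it, SFRP1 and AXIN2 just right of it, and FZD3 and SFRP4 left of it.

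Of the 5 genes of the destruction complex and its feedback among the 53, AXIN2 alone differed by 1.5-fold. AXIN2 is a scaffold of the destruction complex and a direct beta-catenin target that limits the signal. It had 6.22 in the Kindlin-2 shRNA cells, against 7.0 in the control shRNA cells, a difference of -0.78 (1.72-fold lower). Its mean of 6.61 was just above the floor and its Kindlin-2 shRNA value below it. Of 1842 genes of like brightness, 23 lay further below.

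The other parts of the destruction complex kept close to their control values. AXIN1, the constitutive Axin, had 8.42 in the Kindlin-2 shRNA cells and 8.37 in the control shRNA cells, and GSK3B had 9.69 and 9.71. The scaffold APC differed by 0.22 (7.35 and 7.12). NKD1, a feedback inhibitor that binds Dishevelled, had 6.65 and 6.80 (-0.14), the Kindlin-2 shRNA value first in each pair. RNF43 and ZNRF3 are ubiquitin ligases that remove Frizzleds from the surface, and both are feedback targets. RNF43 was below the floor with 5.58 in the Kindlin-2 shRNA cells and 5.93 in the control shRNA cells (-0.34), and ZNRF3 had 8.10 in both.

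Of the nuclear effectors, TCF7L1, mostly a repressor, had 6.81 in the Kindlin-2 shRNA cells and 7.29 in the control shRNA cells, a difference of -0.48 (1.39-fold lower). TCF7L2, a main partner of beta-catenin in epithelia, had 8.70 and 8.79 (-0.10). LEF1 was below the floor, with 4.25 and 4.17. MYC, a target of the pathway and of many others, had 10.46 in the Kindlin-2 shRNA cells and 10.72 in the control shRNA cells (-0.27). None of these 4 genes reached 1.5-fold.

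At a threshold of 1.2-fold, chosen after the values were seen, 17 of the 53 genes were lower and 3 higher, while 33 lay within it. Over all genes 16.8% were at least 1.2-fold lower and 14.8% at least 1.2-fold higher, and 68.4% lay within 1.2-fold. The 17 were spread over 7 roles: 5 Frizzleds, 3 ligands, 3 antagonists, LRP5 and LRP6, RNF43, AXIN2, and TCF7L1 and MYC. Of them FZD3, FZD4, WNT8A, RNF43, SFRP4, DKK1 and DKK2 were below the floor. The 3 higher ones were SFRP1, ROR1 and the dim WNT2. No replicate bears on this count. The SD of the difference among genes of like brightness ran from 0.22 among the dimmest genes to 0.43, and DKK1, DKK2 and WNT2, all in the dimmest bin, lay outside its SD.

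Genes of chromosomes 7 and 12 were lower as a whole in the Kindlin-2 shRNA cells, with medians of -0.22 and -0.21 over the genes above the floor, and 10 of the Wnt genes lie there. Of these 10, 7 were below their control value, and 3 (SFRP4, FZD1 and LRP6) were still below 0 after subtraction of the median of the 50 nearest genes above the floor. FZD1 then differed by -0.34 in place of -0.57, and LRP6 by -0.12 in place of -0.33. SFRP4 differed by -1.03. For the other genes that were at least 1.5-fold apart the subtraction changed little. WNT2B differed by -1.61, FZD3 by -1.73, AXIN2 by -0.86, LRP5 by -0.59 and SFRP1 by 1.02, each still past 1.5-fold. ROR2 lies on chromosome 9, where the median was -0.31, and differed by 0.32 with neighbours subtracted.

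**Figure D3:**
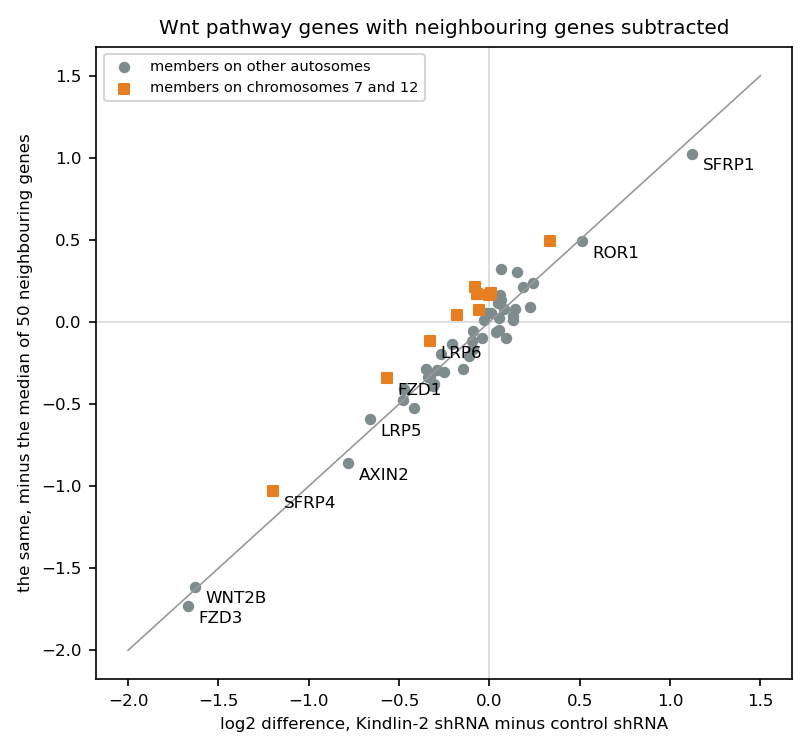
Log2 difference of each of the 53 Wnt pathway genes (horizontal axis) against the same difference minus the median of its 50 nearest genes on the chromosome (vertical axis), with the line of equality. Orange squares are the 10 genes on chromosomes 7 and 12, which lie above the line, and grey points are the other 43. SFRP4, WNT2B, FZD3, AXIN2, LRP5 and SFRP1 keep their distance from 0.

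Other genes of the pathway were counted by list. Of 23 further secreted and surface components, none of the 13 above the floor was 1.5-fold apart. Of all genes above the floor, 4.86% were higher and 4.93% lower. WLS, which carries Wnt ligands to the surface, had 9.58 in the Kindlin-2 shRNA cells and 9.69 in the control shRNA cells (-0.11). The R-spondin RSPO3, which raises Wnt responses through LGR receptors and was named after its value was seen, was below the floor and 2.0-fold lower (4.72 against 5.72). Of 25 cytoplasmic components measured none was 1.5-fold apart, beside 3.77% of all genes higher and 3.81% lower. CXXC5, named after its value was seen, ended just short of it (-0.583, 1.498-fold lower). CTNNB1, which encodes beta-catenin, had 10.96 in the Kindlin-2 shRNA cells and 10.54 in the control shRNA cells (0.42, 1.34-fold higher). The medians of these lists were -0.04 and -0.10 over the genes above the floor.

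The 25 further nuclear components had a median of -0.11, with 16 below and 9 above 0, beside 53.2% of all genes above the floor below 0. TLE4, a Groucho co-repressor, was 1.55-fold lower, with 8.92 in the Kindlin-2 shRNA cells and 9.55 in the control shRNA cells. With its neighbours on chromosome 9 subtracted its difference was -0.33 in place of -0.63. BCL9, a co-activator that binds beta-catenin, was 1.54-fold higher, with 9.79 in the Kindlin-2 shRNA cells and 9.17 in the control shRNA cells. It differed by 0.52 with neighbours subtracted, which is under 1.5-fold, so neither gene kept the threshold under that subtraction. With autosome medians subtracted, BCL9 stayed just past 1.5-fold (0.60) and TLE4 did not (-0.32).

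Among 30 genes of the planar polarity and calcium branches, 2 were at least 1.5-fold lower, beside 3.81% of all genes. None was at least 1.5-fold higher, beside 3.77%. PRICKLE1, a cytoplasmic core protein of planar polarity, had 9.39 in the Kindlin-2 shRNA cells, against 10.57 in the control shRNA cells (2.26-fold lower). CELSR2, an atypical cadherin of the same system, had 7.55 and 8.45 in the same order (1.86-fold lower). PRICKLE1 lies on chromosome 12 and differed by -0.94 with neighbours subtracted, in place of -1.18, and CELSR2 by -0.89. The list's median over the 29 genes above the floor was -0.0011, and the relatives PRICKLE2, CELSR1 and CELSR3 differed by 0.04, 0.06 and 0.17 (named after their values were seen).

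Of 33 known Wnt target genes measured beyond AXIN2, NKD1, RNF43, ZNRF3 and MYC, 4 were at least 1.5-fold higher and 4 lower, beside 3.77% and 3.81% of all genes. This list, like the others, was chosen with earlier results of these data known, which limits what these counts can show. The cyclin CCND2 had 8.71 in the Kindlin-2 shRNA cells, against 11.60 in the control shRNA cells (-2.89). The protease MMP7 had 5.94, which is below 6.52, and 7.53 (-1.59) and the growth factor FGF18 7.73 and 8.54 (-0.81), in the same order. Endothelin EDN1, below the floor and named after its value was seen, had 5.24 and 5.98 (-0.74). The adhesion molecule NRCAM had 7.73 in the Kindlin-2 shRNA cells, against 5.78 in the control shRNA cells (1.95), where it was below 6.52. The urokinase receptor PLAUR had 8.45 and 7.75 (0.70) and the cyclin CCND1 11.50 and 10.89 (0.60), in the same order, and ID2 differed by 0.59 (also named once its value was known). JAG1, a Notch ligand, had 8.73 and 8.90 (-0.18). The median over the 25 targets above the floor was 0.11, and members of the list went both ways. All of these targets also answer to other signals.

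**Figure D4:**
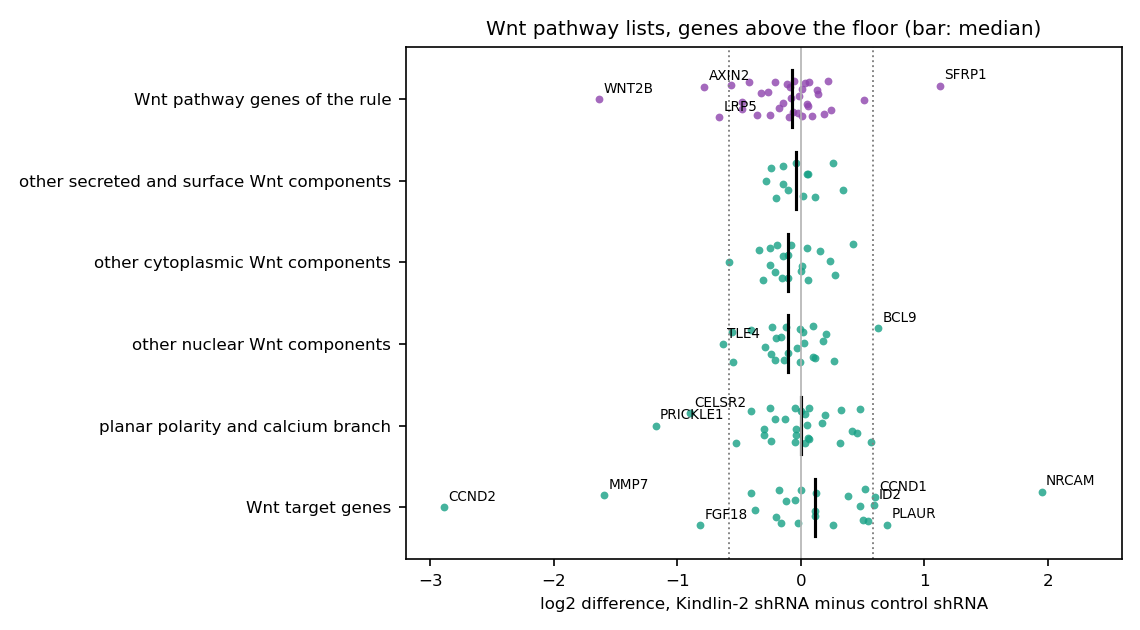
Log2 difference, Kindlin-2 shRNA minus control shRNA (horizontal axis), of the genes above the floor in each list, 1 point a gene, with black bars at the medians (between -0.11 and 0.11) and dotted lines at 1.5-fold. Genes past 1.5-fold are named, and most points of every list lie between the dotted lines.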

How the data were processed

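Total RNA of both cultures (6 µg each) was hybridised to 1 array per group. The authors deposited log2 values. The submitters' processing notes name RMA and Affymetrix Expression Console 1.4.1. RMA corrects background, aligns the distributions of the arrays and summarises probes per transcript cluster, and it compresses differences between dim values. Which arrays were normalised together, and the library file, were not given in the sources used here. Of 33297 clusters, 19460 had a single symbol in GEO's platform annotation, 1754 several and 12083 none. Symbols were updated through Entrez IDs (19429 found) to RefSeq, GRCh38.p14, and the brightest cluster stood for each of 18417 genes (among the members only DKK3 had several). A gene counted as above the floor (6.52) by its mean. Genes were compared as Kindlin-2 shRNA minus control shRNA and counted at 1.5-fold and 2-fold. Genes of like brightness are those of the same bin of 10. Members and lists were chosen with earlier results of these data known. The text names FERMT2, every member, and from each list the genes above the floor at least 1.5-fold apart, up to 3 per direction. It also names CTNNB1, CCND1, JAG1 and WLS. The code for counts and neighbour medians was run on simulated data with less noise than these arrays show. That run checked the code and does not bear on how reliable the counts are. The number of arrays limits the precision of every value. Alternatives were loess (span 0.3), quantile and median corrections, other floors (none, the higher value, the 60th percentile), subtraction of autosome or neighbour medians, the mean over clusters, and a mean in place of the median. Python 3.11.15, pandas 2.3.3, numpy 2.4.6 and statsmodels 0.14.6 were used.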

Additional observations from a re-analysis of the deposited data

How the results depend on the processing

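No paired analysis was possible because each group held 1 array. Under the 6 alternatives of normalisation, centring, position and cluster choice, none of the 53 genes moved by as much as the SD of genes of like brightness. That SD is wider than many of the differences, and several small differences changed sign. Among these, WNT1 ranged from -0.18 to 0.04, WNT5B from -0.08 to 0.22, WNT10B from -0.07 to 0.17, FZD9 from -0.06 to 0.16 and FZD7 from -0.10 to 0.12. AXIN2, FZD3, LRP5, SFRP1, SFRP4 and WNT2B stayed past 1.5-fold in their direction in all 6. LRP5 came closest to the threshold, at -0.59 with neighbour medians subtracted. SFRP4 was at -0.98, just under 2-fold, with its autosome's median subtracted. The floor changed the counts. With the floor on the higher of both values, or with no floor, 5 genes in place of 3 were at least 1.5-fold lower and 3 in place of 1 at least 2-fold lower, since FZD3 and SFRP4 then count. With the floor at the 60th percentile (7.19), the counts of higher genes were 0 at 1.5-fold and 0 at 2-fold, since SFRP1 drops out, and 2 genes in place of 3 were at least 1.5-fold lower, since AXIN2 does too. At a threshold of 1.2-fold, added after seeing the data, 17 genes were lower and 3 higher. Which genes these were depended on position. With neighbour medians subtracted, LRP6 (-0.12) and MYC (-0.20) fell within 1.2-fold, and LGR4 (-0.30) and NKD1 (-0.29) became lower by more than it. ROR2 (0.32) and WNT8B (0.30) became higher by more than it. The median of the members above the floor ranged from -0.09 to -0.02 over the alternatives and was -0.12 as a mean. Without scanner files the background correction and probe summary could not be varied, and with 1 array per group no result has a replicate check.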
